A study of Mus musculus with 138 samples.

Results

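Saa3, a serum amyloid A made outside the liver, and Lcn2, lipocalin 2, a secreted protein that binds bacterial iron carriers, are acute phase genes, switched on early in inflammation, that the lung makes locally. The lungs described here are the 35 with the highest and the 35 with the lowest Saa3 and Lcn2 of 138 mouse lungs, called high-score and low-score lungs. They were chosen by the mean of the z values of Saa3 and Lcn2 over all 138 mice in the authors' deposited log2 values, and both genes were left out of every test.

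All 138 mice carried mixed genomes of 8 founder strains (129S1/SvImJ, A/J, C57BL/6J, CAST/Ei, NOD/LtJ, NZO/H1LtJ, PWK/Ph and WSB/Ei), as partially inbred pre-Collaborative Cross lines, each line giving 1 mouse. Every mouse, in both classes, was sensitized with 10 ug of Der p 1, a house dust mite allergen, by injection into the peritoneum, was challenged with 50 ug on day 15 and gave a right lower lung lobe on day 18, 72 hours after the challenge. No untreated mice were analysed, so the classes differ in how much Saa3 and Lcn2 the treated lungs held and not in treatment. RNA was measured on Illumina WG6v2 bead arrays, 1 array per mouse. Because each line gave 1 mouse, the tests measure the spread between mice, and genotype and individual response cannot be told apart.

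In background terms, interleukin 1, interleukin 6, oncostatin M and tumour necrosis factor signal through the transcription factors NF-kB, C/EBP and STAT3 to acute phase genes. Serum amyloid A and lipopolysaccharide act on receptors of myeloid cells, and lipocalin 2 is released by neutrophils, macrophages and epithelium. In a mite-challenged airway these signals run beside the type 2 response, in which interleukins 4, 5 and 13 drive eosinophils, mucus and alternatively activated macrophages.

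Promoters of Saa3 and Lcn2 are printed first because these genes set the classes, and those of Timp1, Cxcl1 and Cdk1 because they stand below for matrix turnover, neutrophil attraction and cell division. Each sequence is 300 bases long in RefSeq assembly GRCm38.p6, from 250 bases before to 50 after the start of the gene, 5′ to 3′ on the strand of the gene. In the sequences of Saa3, Lcn2, Timp1 and Cxcl1, capitals mark matches on either strand to 3 simplified motifs, GGGANNNNCC for NF-kB, TTGCNNAA for C/EBP and TTCNNNGAA for STAT. In that of Cdk1 they mark TTTGAA, the core of the CHR element of cell cycle genes.
Saa3 (chr7:46715627-46715926, minus strand): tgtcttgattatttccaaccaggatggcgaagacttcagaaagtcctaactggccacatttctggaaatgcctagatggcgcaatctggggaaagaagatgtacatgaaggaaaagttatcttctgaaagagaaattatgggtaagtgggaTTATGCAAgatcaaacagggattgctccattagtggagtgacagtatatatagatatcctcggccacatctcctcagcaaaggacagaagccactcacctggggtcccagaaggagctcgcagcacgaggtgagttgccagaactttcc
Lcn2 (chr2:32387690-32387989, minus strand): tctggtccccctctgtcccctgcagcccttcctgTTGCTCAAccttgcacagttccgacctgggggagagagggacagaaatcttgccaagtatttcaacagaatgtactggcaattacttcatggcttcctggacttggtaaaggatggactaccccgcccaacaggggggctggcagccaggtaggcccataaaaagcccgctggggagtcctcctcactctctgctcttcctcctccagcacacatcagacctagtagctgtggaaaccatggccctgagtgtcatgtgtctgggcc
Timp1 (chrX:20869916-20870215, plus strand): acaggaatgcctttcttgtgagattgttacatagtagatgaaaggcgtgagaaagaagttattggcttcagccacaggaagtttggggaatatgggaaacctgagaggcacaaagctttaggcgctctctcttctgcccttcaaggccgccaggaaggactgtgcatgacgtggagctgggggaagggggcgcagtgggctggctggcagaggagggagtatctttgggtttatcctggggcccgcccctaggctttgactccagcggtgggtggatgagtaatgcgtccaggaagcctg
Cxcl1 (chr5:90890995-90891294, plus strand): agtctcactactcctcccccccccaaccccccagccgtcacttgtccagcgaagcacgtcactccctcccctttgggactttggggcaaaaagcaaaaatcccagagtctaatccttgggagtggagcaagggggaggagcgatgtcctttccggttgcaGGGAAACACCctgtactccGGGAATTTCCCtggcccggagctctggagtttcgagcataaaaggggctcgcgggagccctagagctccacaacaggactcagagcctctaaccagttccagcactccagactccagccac
Cdk1 (chr10:69352863-69353162, minus strand): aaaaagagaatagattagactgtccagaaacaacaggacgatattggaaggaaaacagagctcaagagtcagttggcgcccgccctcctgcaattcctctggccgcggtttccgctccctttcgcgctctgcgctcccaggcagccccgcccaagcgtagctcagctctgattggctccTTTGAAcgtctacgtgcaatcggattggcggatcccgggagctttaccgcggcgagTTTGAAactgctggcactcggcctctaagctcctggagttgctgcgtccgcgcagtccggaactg
Saa3 and Lcn2 each held 1 C/EBP-type match, starting 99 and 216 bases before the gene start, and no NF-kB-type or STAT-type match in this window. Cxcl1 held 3 NF-kB-type matches, of which the ones starting 71 and 70 bases before the start overlap each other. Timp1 held none of the 3 motifs, and Cdk1 held TTTGAA at 71 and 15 bases before the start, with an NF-kB-type match, not in capitals, at 45 bases before it. Of 27025 promoters of the same length, 20.5% held the NF-kB-type, 10.8% the C/EBP-type and 8.47% the STAT-type motif, and 18.1% held TTTGAA. A match is a description of letters, not of a bound factor.

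Levels below are log2 normalized intensities with a floor near 4.19. Over the array, 19075 to 21362 of 45281 probes were detected in high-score lungs (median 20394) and 19541 to 21218 in low-score lungs (median 20399). Lung markers were present in both classes: Scgb1a1, the main club cell secretory protein, had medians of 13.11 in high-score and 13.12 in low-score lungs, and Sftpc, the surfactant protein of alveolar type 2 cells, medians of 12.29 and 12.38. 1 low-score lung, that of line OR5308, stood apart. Its array had the lowest median correlation with the others (0.8939), and 1058 genes had their highest level of all mice there. Among them were the liver genes Fga, at 12.61 against a highest other level of 7.31, and Ahsg, at 12.66 against 7.12, and the skeletal muscle gene Ckm, at 11.39 against 7.67. For the main liver-type genes named below, the difference without this mouse is given too.

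Saa3 was at 9.50 to 11.95 in high-score lungs (median 10.58) and at 5.12 to 9.10 in low-score lungs (median 7.41). The class means were 10.63 ± 0.69 and 7.48 ± 1.00 (SD, n = 35 each), an 8.87-fold difference. Lcn2 was at 11.77 to 12.80 in high-score lungs (median 12.39) and at 9.57 to 11.44 in low-score lungs (median 10.68), with means of 12.37 ± 0.24 and 10.65 ± 0.48, a 3.28-fold difference. The classes did not overlap in either gene, which the choice of mice by these 2 genes brings about and which is not a test. Lcn2 was at 11.77 or more in every high-score lung, on a scale that reached 13.35, and whether its upper range is compressed was not tested. Across all 138 mice the 2 genes correlated at Pearson r = 0.65 and Spearman rho = 0.648 in the deposited values, given as a description.

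**Figure D1:**
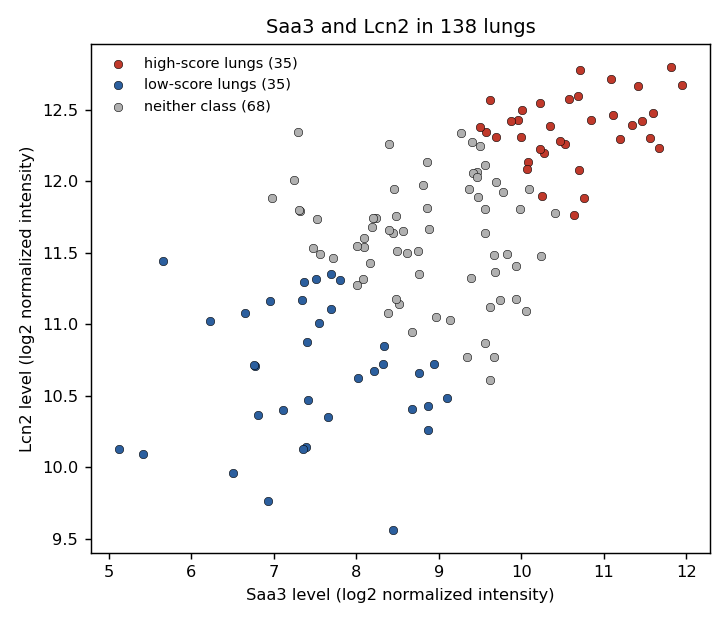
Saa3 (horizontal) and Lcn2 (vertical) in each of 138 lungs, as log2 normalized intensity, coloured by class. The 35 high-score lungs lie at Saa3 9.50 or more and Lcn2 11.77 or more, the 35 low-score lungs at Saa3 9.10 or less and Lcn2 11.44 or less, and 68 lungs belong to neither class.

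The boundaries of the classes cut through a continuous range. The last mouse inside the high class had a score of 0.692 and the first outside it 0.686, and the last mouse inside the low class had -0.582 and the first outside it -0.558. Chosen by Saa3 alone, 30 of the 35 high-score and 24 of the 35 low-score mice kept their class, and chosen by Lcn2 alone 29 and 26 did. Highest-35 rank by both genes taken singly held for 24 mice and lowest-35 rank for 15. No mouse was in the highest 35 by Saa3 and the lowest 35 by Lcn2, and 1 mouse was the reverse.

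Of 16615 other genes, 1546 (9.30%) were higher and 940 (5.66%) lower in high-score than in low-score lungs (limma, Benjamini-Hochberg adjusted p under 0.05, 35 against 35 mice), 15.0% in either direction. The median difference of all genes was -0.01. Without the mouse of line OR5308 the counts were 1706 (10.3%) higher and 1221 (7.35%) lower. In whole-lobe RNA, more cells of a type and more RNA per cell cannot be told apart, and that holds for every gene below.

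The 14 largest differences upward were led by Arg1 and Timp1. Arg1, the arginase of alternatively activated macrophages, was at 6.14 to 12.12 in high-score lungs (median 9.07) and at 4.73 to 11.81 in low-score lungs (median 6.71). The ranges overlapped widely, with 34 of 35 high-score lungs above the low-score median, and the log2 difference was 2.31 ± 0.35 (SE), 4.96-fold (limma, adjusted p = 7.52e-07). Timp1, a secreted inhibitor of matrix metalloproteinases, was at 10.33 to 12.54 in high-score lungs (median 11.55) and at 7.24 to 11.42 in low-score lungs (median 9.38). 20 of 35 high-score lungs lay above every low-score lung, and the difference of 2.10 ± 0.20, 4.28-fold, had the smallest p of the 28 genes named for size (limma, adjusted p = 7.1e-12). Its 2 probes on the array correlated at 0.996.

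Pbk, Cdk1, Prc1 and Cdkn3, which act in mitosis, were also among the 14 largest increases. Cdk1, the kinase that starts mitosis, was at 6.72 to 9.31 in high-score lungs (median 8.07) and at 5.32 to 7.92 in low-score lungs (median 6.57), and 23 of 35 high-score lungs lay above every low-score lung. Its difference was 1.52 ± 0.15 (limma, adjusted p = 1.53e-11). Prc1, which bundles microtubules of the dividing spindle, separated the classes most among these 14: 28 of 35 high-score lungs exceeded all low-score lungs, with medians of 10.18 in high-score and 8.58 in low-score lungs and a difference of 1.47 ± 0.15. Pbk, a mitotic kinase, differed by 1.73 ± 0.17 and Cdkn3, a phosphatase of cyclin-dependent kinases, by 1.46 ± 0.15.

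The other 8 of the 14 had wide ranges in both classes. Fxyd4, a regulator of the sodium pump, had medians of 8.30 in high-score and 6.14 in low-score lungs and a difference of 1.67 ± 0.37, and Clec4n, the receptor Dectin-2 that binds fungal and mite glycans, had medians of 8.64 and 7.11 and a difference of 1.63 ± 0.30. Mmp12, the macrophage elastase, had medians of 7.41 and 5.93 (1.39 ± 0.23). Cxcl9, a chemokine for T cells, reached 11.58 in high-score lungs and 9.01 in low-score lungs, and 6 of 35 high-score lungs lay above all low-score lungs (1.46 ± 0.32). The epithelial genes Retnlb, a resistin-like secreted protein, and Gp2, a glycoprotein of M cells, differed by 1.41 ± 0.34 and 1.40 ± 0.39. For SPRR2A, a small proline-rich protein of squamous epithelium, the difference was 1.60 ± 0.45, and the lowest correlation among its probes was 0.133. Fgl1, a fibrinogen-like protein best known from liver, fell on 2 separate levels near 6.22 and 10.57, with 21 of 35 high-score and 28 of 35 low-score lungs under the midpoint of 8.4, and differed by 1.64 ± 0.47 (limma, adjusted p = 0.00923), or by 1.78 ± 0.46 without the mouse of line OR5308.

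**Figure D2:**
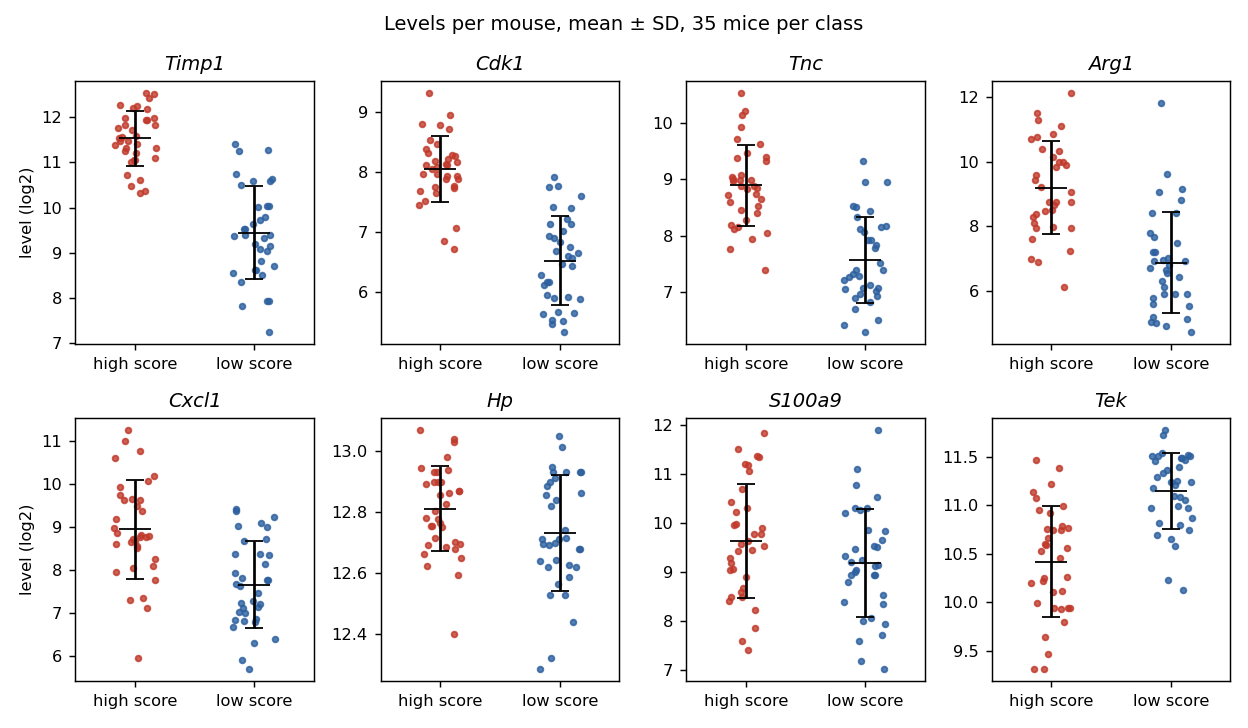
Levels of 8 genes in each of 35 high-score (left) and 35 low-score (right) lungs, log2 normalized intensity on an axis of its own for each gene, with mean ± SD in black. Timp1, Cdk1, Tnc, Arg1 and Cxcl1 are higher and Tek lower in high-score lungs, whereas Hp and S100a9 did not pass the test.

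The decreases were smaller, and liver-type and vascular genes were among them. Asgr1, the asialoglycoprotein receptor, was at 4.78 to 7.55 in high-score lungs (median 5.51) and at 5.18 to 11.54 in low-score lungs (median 6.82). Only 1 high-score lung lay above the low-score median, and the difference was -1.21 ± 0.21 (limma, adjusted p = 1.07e-05). It was -1.08 ± 0.16 without the mouse of line OR5308, which held the 11.54. Vtn, vitronectin, an adhesive plasma protein, had medians of 6.89 in high-score and 7.81 in low-score lungs, a difference of -0.92 ± 0.18 and, without that mouse, of -0.78 ± 0.13. Ces1f, a carboxylesterase, was at 4.82 to 8.23 in high-score lungs (median 6.75) and at 6.64 to 10.64 in low-score lungs (median 7.79), 2.23-fold lower (difference -1.16 ± 0.19, limma, adjusted p = 4.24e-06). The 10.64 was that of line OR5308, and the difference without that mouse was -1.08 ± 0.18.

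Igfbp3, a carrier of insulin-like growth factors, was 2.23-fold lower in high-score lungs, with medians of 7.17 in high-score and 8.32 in low-score lungs. Nrn1, a membrane-anchored neurite growth factor, was 2.17-fold lower and Esm1, a proteoglycan of sprouting endothelium, 2.16-fold lower, with 24 of 35 high-score lungs under the low-score median of Esm1. Bex2, Tubb1, the beta tubulin of platelets, and Cd207, the langerin of dendritic cells, were lower by 1.88-fold, 1.81-fold and 1.87-fold.

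The remaining 5 of the 14 decreases fell on 2 separate levels each. Cavin1, a coat protein of caveolae, had levels near 6.60 and 9.54, and 25 of 35 high-score against 12 of 35 low-score lungs lay under the midpoint of 8.07. Its difference was -1.34 ± 0.36 (limma, adjusted p = 0.00563), and its 2 probes correlated at 0.081. Under their midpoints lay 5 high-score and 0 low-score lungs for Notch3, a receptor of vascular mural cells, 5 and 1 for Maob, a monoamine oxidase, 8 and 1 for Plxdc1, and 15 and 5 for Prkaa2, a catalytic subunit of AMP-activated kinase. The probes of Plxdc1 correlated at -0.215. Founder variants under the probes were not looked at, for these genes or any other.

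Among the acute phase list, 9 of 23 genes tested were higher and 0 lower, with a median difference of 0.41, against 9.30% higher and a median of -0.01 over all genes. Serpina3n, an inhibitor of serine proteases, was at 11.71 to 12.94 in high-score lungs (median 12.16) and at 10.13 to 12.35 in low-score lungs (median 11.46). All 35 high-score lungs lay above the low-score median, and it differed by 0.69 ± 0.10 (limma, adjusted p = 3.44e-07). Lrg1, a glycoprotein of endothelium and neutrophils, was at 11.21 to 12.37 in high-score lungs and at 9.72 to 12.08 in low-score lungs, again with all 35 high-score lungs above the low-score median (0.74 ± 0.10, limma, adjusted p = 4.67e-08). Cd14, the lipopolysaccharide co-receptor, differed by 0.88 ± 0.11, and Ptx3, a pentraxin made at sites of inflammation, by 0.75 ± 0.15. Ptx3 lay near the floor, with a median of 4.87 over the mice other than that of line OR5308. Cp, the copper oxidase ceruloplasmin, rose by 0.60 ± 0.14, though the lowest correlation among its probes was -0.142, and Mt2, a metallothionein, by 0.43 ± 0.14.

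The alpha-1 acid glycoproteins Orm1 and Orm2 were higher too. Orm1 was at 5.55 to 8.95 in high-score lungs (median 7.27) and at 4.73 to 12.57 in low-score lungs (median 6.26), where the highest value is that of line OR5308. Its difference was 0.95 ± 0.26 with that mouse and 1.13 ± 0.20 without it, and that of Orm2 was 0.97 ± 0.33 and 1.09 ± 0.31. Serpina3g, a protease inhibitor of activated leukocytes, differed by 1.07 ± 0.36 and fell on 2 levels, with 3 lungs of each class under the midpoint.

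Several members of the list lay near an end of the scale or did not pass. Hp, haptoglobin, was at 12.40 to 13.07 in high-score lungs (median 12.80) and at 12.28 to 13.05 in low-score lungs (median 12.71), near the top of the scale in both classes (difference 0.08 ± 0.04, limma, adjusted p = 0.217). Saa1 and Saa2, the serum amyloid A genes of liver, lay near the floor: medians were 4.85 and 4.69 in high-score lungs and 4.83 and 4.75 in low-score lungs, with differences of -0.05 ± 0.09 and -0.08 ± 0.06, or 0.03 ± 0.05 and -0.03 ± 0.04 without the mouse of line OR5308. Hamp, the iron hormone hepcidin, differed by -0.20 ± 0.34, or -0.05 ± 0.31 without it. With this mouse left out, 12 of the 23 genes were higher, the added ones being Fga, the fibrinogen alpha chain (0.67 ± 0.16), Itih3 (0.47 ± 0.13) and Itih4 (0.48 ± 0.17), 2 heavy chains of inter-alpha-trypsin inhibitors. Fga had a median of 5.47 in high-score and 4.62 in low-score lungs, close to the floor.

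Among ligands and receptors of the interleukin 1, interleukin 6 and tumour necrosis factor families, 8 of 22 genes were higher and 0 lower, with a median difference of 0.12. Il1rn, the antagonist of the interleukin 1 receptor, was at 5.05 to 9.45 in high-score lungs (median 6.87) and at 4.63 to 6.96 in low-score lungs (median 5.84), 15 of 35 high-score lungs lying above every low-score lung. It differed by 1.20 ± 0.18 (limma, adjusted p = 7.52e-07) and Il1r2, the decoy receptor for interleukin 1, by 1.00 ± 0.20. Il1b, the ligand, differed by 0.70 ± 0.19. Il33, an alarmin of epithelium and endothelium, had medians of 10.28 in high-score and 9.34 in low-score lungs (1.11 ± 0.26). It fell on 2 levels near 5.63 and 9.94, with 1 high-score and 4 low-score lungs under the midpoint of 7.78. Osm, oncostatin M, and its receptor Osmr differed by 0.61 ± 0.16 and 0.45 ± 0.12, and Tnf and its receptor Tnfrsf1b by 0.34 ± 0.12 and 0.38 ± 0.07. Tnf lay near the floor, with a median of 4.78 over the mice other than that of line OR5308. Il6 was detected in 9 of the 70 lungs and Csf3, the neutrophil growth factor, in 7, so that neither could be read at these levels.

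Downstream of these signals, 5 of 13 STAT3, C/EBP and SOCS regulators were higher and 0 lower (median difference 0.16). Socs3, the feedback inhibitor of interleukin 6 and oncostatin M signals, had medians of 10.28 in high-score and 9.79 in low-score lungs (0.45 ± 0.12), and Bcl3, a nuclear partner of NF-kB, 7.64 and 6.94 (0.58 ± 0.11). Pim1, a kinase gene, Jak2, a kinase of cytokine receptors, and Ptpn2, a phosphatase that limits their signals, differed by 0.46 ± 0.14, 0.24 ± 0.09 and 0.42 ± 0.08. Pim1 lay near the floor, and 2 of its probes correlated at 0.005. The factors did not pass themselves: Stat3 differed by 0.18 ± 0.09 and Cebpb by 0.05 ± 0.05. Among NF-kB subunits and feedback inhibitors, 4 of 15 were higher and 1 lower (median 0.20). Nfkbie and Tnip1, inhibitors, Relb, a subunit, and Tnip3, an inhibitor near the floor, were higher by 0.55 ± 0.10, 0.27 ± 0.07, 0.32 ± 0.10 and 0.27 ± 0.10. Rela, the main activating subunit, fell by 0.16 ± 0.05 (limma, adjusted p = 0.0301), and Nfkbia differed by -0.17 ± 0.11.

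Of 14 receptors for serum amyloid A and lipopolysaccharide, 4 were higher and 0 lower. Myd88, the adaptor of Toll-like receptors, had medians of 11.35 in high-score and 10.96 in low-score lungs, and 34 of 35 high-score lungs lay above the low-score median (0.36 ± 0.06, limma, adjusted p = 1.28e-06), and its 2 probes correlated at 0.285. Tlr2 and Tlr1, which pair to sense lipoproteins, differed by 0.34 ± 0.10 and 0.22 ± 0.08, and Tlr4, the lipopolysaccharide receptor, by 0.15 ± 0.10, which did not pass. Tlr1 lay near the floor. Of the iron and zinc list, 3 of 18 were higher and 0 lower: Hmox1, the haem oxygenase (0.86 ± 0.16), Slc11a1, an iron exporter of phagosomes (0.59 ± 0.09), and Mt2. The lipocalin 2 receptor gene Slc22a17 differed by -0.12 ± 0.07 and did not pass.

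**Figure D3:**
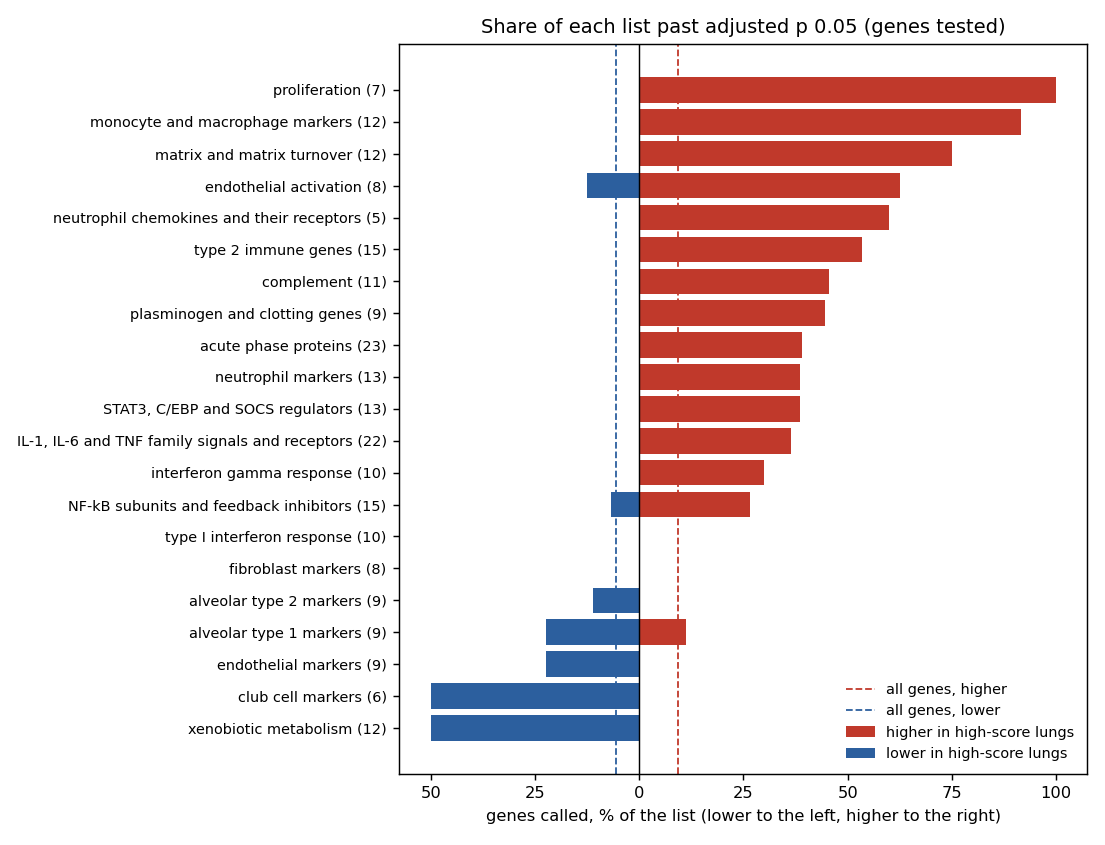
Share of the genes of 21 lists called higher (to the right) or lower (to the left) in high-score lungs, with the number tested in brackets and dashed lines at the shares over all genes, 9.30% higher and 5.66% lower. All 7 proliferation genes were higher, and 6 of 12 xenobiotic metabolism and 3 of 6 club cell genes were lower.

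Neutrophil genes moved unevenly. Of 5 neutrophil chemokines and receptors, 3 were higher. Cxcl1, a chemokine that recruits neutrophils, was at 5.95 to 11.27 in high-score lungs (median 8.78) and at 5.69 to 9.42 in low-score lungs (median 7.62), with 12 high-score lungs above every low-score lung (1.29 ± 0.25, limma, adjusted p = 0.000122). Cxcl2, a second such chemokine, and its receptor Cxcr2 differed by 0.57 ± 0.17 and 0.64 ± 0.22. Cxcl2 lay near the floor, with a median of 4.73 over the mice other than that of line OR5308. Of 13 neutrophil markers, 5 were higher and 0 lower (median 0.45): Ltf, lactoferrin (1.32 ± 0.27), Retnlg (1.01 ± 0.25), Chil1, a chitinase-like protein also of macrophages and epithelium (0.78 ± 0.13), Cxcr2 and Csf3r, the receptor for the growth factor of neutrophils (0.55 ± 0.20). S100a8 and S100a9, which form calprotectin, and Ngp did not pass: S100a8 differed by 0.93 ± 0.61, S100a9 by 0.45 ± 0.27, and Ngp, a granule protein of immature neutrophils, by -0.02 ± 0.19. The summed level of the list, as a mean z value, was -0.57 to 2.53 in high-score lungs (median 0.22) and -1.24 to 1.71 in low-score lungs (median -0.18), and 7 high-score lungs lay under the low-score median. A fit with this mean as a covariate is given at the end, and the part of neutrophils in the other results was not tested.

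Of the cell type lists, that of monocyte and macrophage markers had the largest share called, 11 of 12 higher and 0 lower, with a median difference of 0.65. Ccr2, the receptor that brings monocytes into tissue, was at 4.31 to 7.33 in high-score lungs (median 6.25) and at 4.28 to 6.17 in low-score lungs (median 5.16), and 19 high-score lungs lay above every low-score lung (1.10 ± 0.17, limma, adjusted p = 1.38e-06). Ccl7, one of its ligands, differed by 1.27 ± 0.27, Clec4d, a C-type lectin, by 1.07 ± 0.24, and Cd68, a lysosomal protein, by 0.73 ± 0.13. Csf1r, the growth factor receptor shared by all macrophages, was the member that did not pass (0.24 ± 0.12). The mean z value of the list was -0.26 to 1.92 in high-score lungs (median 0.53) and -1.40 to 0.37 in low-score lungs (median -0.55), so that every high-score lung lay above the low-score median. The part of these cells in the changes of other lists was not tested. Of 8 alveolar macrophage markers, 1 was higher, Mrc1, the mannose receptor (0.75 ± 0.10), against 9.30% higher over all genes. Marco, a scavenger receptor, and Pparg, the regulator of these cells, differed by 0.47 ± 0.21 and 0.16 ± 0.08.

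Matrix genes followed, 9 of 12 higher and 0 lower (median 0.72). Tnc, tenascin C, a matrix protein of repair, was at 7.40 to 10.52 in high-score lungs (median 8.88) and at 6.30 to 9.31 in low-score lungs (median 7.39), and all 35 high-score lungs lay above the low-score median (1.31 ± 0.17, limma, adjusted p = 2.42e-08). Mmp14, a membrane-bound collagenase, differed by 0.71 ± 0.09, with 20 high-score lungs above every low-score lung. Col1a1, the main fibrillar collagen, differed by 1.09 ± 0.16, Spp1, osteopontin, by 0.89 ± 0.27, Col3a1 by 0.74 ± 0.21, Lox, the collagen cross-linking oxidase, by 0.70 ± 0.13 and Fn1, fibronectin, by 0.51 ± 0.15. Timp3 and Mmp3 did not pass, at -0.11 ± 0.05 and 0.46 ± 0.30. Of 8 fibroblast markers, 0 were called by limma and 0 had an unadjusted p under 0.05, with a median difference of -0.07.

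All 7 proliferation genes were higher, with a median difference of 1.33. Cdc20, the activator of the anaphase complex, was at 7.82 to 10.33 in high-score lungs (median 9.57) and at 6.88 to 9.43 in low-score lungs (median 7.88), 22 high-score lungs lying above every low-score lung (1.38 ± 0.15, limma, adjusted p = 5.92e-11). Birc5, survivin, and Aurka, a mitotic kinase, each differed by 1.33, with SE of 0.15 and 0.16, and Mki67, the proliferation antigen, by 1.11 ± 0.20. Promoters of 5 of these 7 genes (Mki67, Top2a, Cdk1, Aurka and Cdc20) held TTTGAA, the letters in capitals in the Cdk1 sequence, against 18.1% of all promoters. The NF-kB-type letters were also in 5 of the 7 (Top2a, Ccnb1, Cdk1, Birc5 and Cdc20), against 20.5% of all promoters, and the C/EBP-type and STAT-type letters in 0. Among higher genes of other lists with a promoter sequence, TTTGAA was in 4 of 6 type 2, 2 of 7 acute phase and 2 of 7 macrophage genes. It was in 1 of 6 matrix genes and in 0 of 7 of the interleukin 1, interleukin 6 and tumour necrosis factor list. All of these are descriptions.

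Of 11 complement genes, 5 were higher and 0 lower. C1qa, C1qb and C1qc, the chains of the recognition molecule of the classical pathway, differed by 0.97 ± 0.12, 0.97 ± 0.15 and 0.86 ± 0.14, and Cfp, properdin, by 0.79 ± 0.10, with all 35 high-score lungs above the low-score median of C1qc and of Cfp. Cfi, a protease that inactivates C3b, differed by 1.17 ± 0.31, or 1.32 ± 0.28 without the mouse of line OR5308. C3 itself did not pass (-0.50 ± 0.27): it lay on 2 levels near 9.20 and 11.84, with 11 high-score and 3 low-score lungs under the midpoint of 10.52. Of 9 clotting and plasminogen genes, 4 were higher: F10 and F7, clotting proteases (1.10 ± 0.24 and 0.65 ± 0.19, or 1.20 ± 0.22 and 0.71 ± 0.18 without that mouse), F13a1, a cross-linking enzyme of macrophages (0.56 ± 0.13), and Plau, urokinase (0.48 ± 0.17).

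Vessel genes moved in both directions. Of 8 genes of endothelial activation, 5 were higher and 1, Esm1, lower. Selp, P-selectin, which slows leukocytes on the vessel wall, was at 7.44 to 9.92 in high-score lungs (median 8.91) and at 6.19 to 9.51 in low-score lungs (median 7.55), and 34 of 35 high-score lungs lay above the low-score median (1.23 ± 0.17, limma, adjusted p = 7.34e-08). Ackr1, a chemokine carrier of venules, differed by 1.02 ± 0.18, Sele, E-selectin, by 0.45 ± 0.12 and Vcam1 by 0.36 ± 0.09, whereas Icam1 had a median of 11.69 in both classes (0.03 ± 0.07). Sele lay near the floor. Of 9 endothelial markers, 0 were higher and 2 lower. Tek, the angiopoietin receptor, was at 9.31 to 11.47 in high-score lungs (median 10.53) and at 10.13 to 11.78 in low-score lungs (median 11.24), with 33 high-score lungs under the low-score median (-0.72 ± 0.12, limma, adjusted p = 2.01e-06). Ednrb, the endothelin receptor of capillary endothelium, differed by -0.39 ± 0.09, and Pecam1, a marker of all endothelium, by -0.12 ± 0.08, which did not pass.

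Type 2 immune genes also rose with the score, 8 of 15 higher and 0 lower (median 0.48). Apart from Arg1, these included Ccl24, an eosinophil chemokine (1.33 ± 0.32), Ccl8, a chemokine for T helper 2 cells in mice (1.23 ± 0.33), and Ccl17 (0.80 ± 0.22). Mrc1 and Mgl2, a lectin of macrophages and dendritic cells (0.68 ± 0.17), were higher too. The others, both near the floor, were Il5 (0.31 ± 0.09) and Il1rl1, the receptor of interleukin 33 (0.25 ± 0.09). Il13 differed by 0.13 ± 0.07 and Retnla by 0.48 ± 0.20, which did not pass. The mean z value of the list was -0.76 to 1.99 in high-score lungs (median 0.31) and -1.67 to 0.60 in low-score lungs (median -0.34), and 4 high-score lungs lay under the low-score median. Of 7 eosinophil markers, 2 were higher, Rnase2a, an eosinophil ribonuclease (1.27 ± 0.34), and Prg2, major basic protein (0.97 ± 0.33). Mucous cell genes showed 1 of 9 higher, the anion exchanger Slc26a4 (1.29 ± 0.32), against 9.30% higher over all genes. In the mean z value of that list, 11 high-score lungs lay under the low-score median. Clca1 and Muc5ac, products of goblet cells, differed by 0.12 ± 0.57 and 0.49 ± 0.44, with wide ranges in both classes.

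Interferon gamma response genes showed 3 of 10 higher, Cxcl9, Cxcl10 (1.18 ± 0.25) and Ciita, the master regulator of MHC class II (0.53 ± 0.14). With lines OR5513 and OR1427 left out, 2 high-score mice that earlier results of these data gave as having very high interferon genes, Cxcl9 differed by 1.24 and Cxcl10 by 1.02, and both passed. Type I interferon response genes showed 0 of 10 called by limma, 3 had an unadjusted p under 0.05, the median difference was 0.30, and Isg15, a ubiquitin-like protein, had an adjusted p = 0.0508 at 0.66 ± 0.24. With classes set by Saa3 alone, 5 of 10 type I genes (median 0.53) and 6 of 10 interferon gamma genes were higher, whereas classes set by Lcn2 alone gave the same counts as the mean of both genes. Of all 16615 genes, 1647 were higher with classes by Saa3 alone and 1534 with classes by Lcn2 alone. Of 7 genes of the interleukin 17 and 22 axis, 1 was higher, Il17ra, a receptor subunit for interleukin 17 (0.22 ± 0.07). Of 15 epithelial antimicrobial genes, 2 were higher, Ltf and the membrane mucin Muc4 (0.59 ± 0.13), with a median difference of 0.08 for the list. Reg3g, a bactericidal lectin, differed by 1.03 ± 0.43 (limma, adjusted p = 0.0969). Of 13 T cell markers, 3 were higher: Icos (0.42 ± 0.11), Foxp3, the regulatory T cell factor (0.32 ± 0.10), and Cd8b1 (0.21 ± 0.07). Of 8 B and plasma cell markers, 1 was higher, Fcer2a (0.49 ± 0.15). Over all genes 9.30% were higher, the share beside which the few calls of these short lists are to be read.

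Genes of xenobiotic metabolism and club cells were lower more often than higher. Of 12 xenobiotic metabolism genes, 0 were higher and 6 lower, with a median difference of -0.40, against 5.66% lower over all genes. Ephx1, an epoxide hydrolase, was at 9.70 to 11.29 in high-score lungs (median 10.51) and at 10.15 to 11.65 in low-score lungs (median 11.13), with 33 of 35 high-score lungs under the low-score median (-0.53 ± 0.09, limma, adjusted p = 2.65e-06). The monooxygenase Fmo1 differed by -0.36 ± 0.07 and the lung cytochrome Cyp4b1 by -0.37 ± 0.09. Cyp2e1 differed by -0.74 ± 0.26 and Pon1 by -0.62 ± 0.22. When the mouse of line OR5308 was left out, Cyp2e1 differed by -0.59 ± 0.22 (limma, adjusted p = 0.0539) and Pon1 by -0.56 ± 0.22 (limma, adjusted p = 0.0651), in the same direction and just above the threshold, and Cyp2e1 was at 12.51 in that mouse. Of 6 club cell markers, 3 were lower, Aldh1a1 (-0.43 ± 0.12), Aldh3a1 (-0.47 ± 0.15) and Cyp2f2 (-0.21 ± 0.07). Of 9 alveolar type 1 markers, 1 was higher, Pdpn (0.15 ± 0.05), and 2 lower, Rtkn2 (-0.24 ± 0.07) and Cav1 (-0.23 ± 0.07), and with that mouse left out Ager (-0.13), Hopx (-0.17) and Emp2 (-0.12) were lower as well. Of 9 alveolar type 2 markers, 1 was lower, Abca3, the lipid transporter of surfactant (-0.17 ± 0.04).

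Lists of other cells that a lobe can hold are set here beside the 15.0% of all genes called in either direction. Such short lists can hold no call at that share, so no call does not show that nothing differed. No gene was called by limma among 7 mesothelial, 8 cardiac muscle, 6 skeletal muscle, 6 erythroid and 3 adipose markers, nor among 12 clock genes and 4 sex-linked genes, of which 2 mesothelial, 1 erythroid, 2 clock and 2 sex-linked genes and 0 of the others had an unadjusted p under 0.05. Leaving out the mouse of line OR5308 added Gpm6a (-0.45), a mesothelial marker, Pvalb (0.26), a muscle marker, and the clock genes Clock (-0.18) and Per1 (-0.36) to the calls. Of 8 ciliated cell markers, Rsph1 was higher (0.48 ± 0.15), and of 8 smooth muscle markers Acta2 (0.12 ± 0.04) and Tagln (0.54 ± 0.11). Treml1 was the platelet marker of 6 that was lower (-0.46 ± 0.14), and Cyp2e1 the hepatocyte marker of 3. Without the mouse of line OR5308 the hepatocyte list instead had 0 lower and 1 higher, Ahsg (0.48 ± 0.12, limma, adjusted p = 0.00186). Among immediate early genes, Jun and Dusp1 were lower by 0.34 each, SE 0.10 and 0.08. Among glucocorticoid targets, 2 of 9 were higher, Fkbp5 (0.63 ± 0.20) and Mt2, and 2 lower, Tsc22d3 (-0.22 ± 0.08) and Dusp1. Of 10 housekeeping genes, 4 were higher, Gapdh by 0.22 ± 0.04, Rpl13a by 0.29 ± 0.07, Gusb by 0.42 ± 0.12 and Actb by 0.10 ± 0.04, and the part of such array-wide shifts in differences of similar size was not tested.

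The 68 lungs in neither class, which the comparison did not use, were fitted on the same score. Of the 1546 genes higher in high-score lungs, 1405 (90.9%) had a positive slope there, and of the 940 lower genes 790 had a negative slope, while 50.2% of all genes had a positive slope. By limma over all genes, 6 genes rose with the score in these 68 lungs (0.0361%) and 1 fell (0.00602%). Timp1 was among them, at 0.35 ± 0.07 log2 per SD of the score in these 68 lungs (limma, adjusted p = 0.0332). Also rising were P2ry6, a nucleotide receptor of macrophages (0.18 ± 0.04), and Rrm1, a subunit of ribonucleotide reductase (0.15 ± 0.03). Rab3il1 (0.23 ± 0.05), Trappc1 (0.10 ± 0.02) and the histone gene H3c1 (0.18 ± 0.04) rose too. Hoxb5, a homeobox gene, fell by 0.22 per SD of the score, SE 0.04. These 7 genes were named because the fit called them, not by the rule for named genes.

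The labels give no batch, but the number at the end of each mouse's name falls into a range below 120 (74 mice) and a range above it (64 mice). High-score lungs numbered 16 in the lower range and 19 in the upper, and low-score lungs 15 and 20. Within the lower range 477 genes were higher (2.87%) and 176 lower (1.06%), and within the upper range 820 (4.94%) and 246 (1.48%), with fewer mice in each fit. The interaction of class and range called 0 genes (0%) in limma and 1038 (6.25%) had an unadjusted p under 0.05. Timp1 differed by 1.78 in the lower range and 2.33 in the upper, and Cdk1 by 1.51 and 1.52. All 28 genes named for size kept their direction in both ranges, and 11 of them passed in the lower range and 18 in the upper. Sele differed by -0.01 in the lower range and 0.81 in the upper, and Cxcl1 by 0.46 and 1.94, and neither interaction passed.

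**Figure D4:**
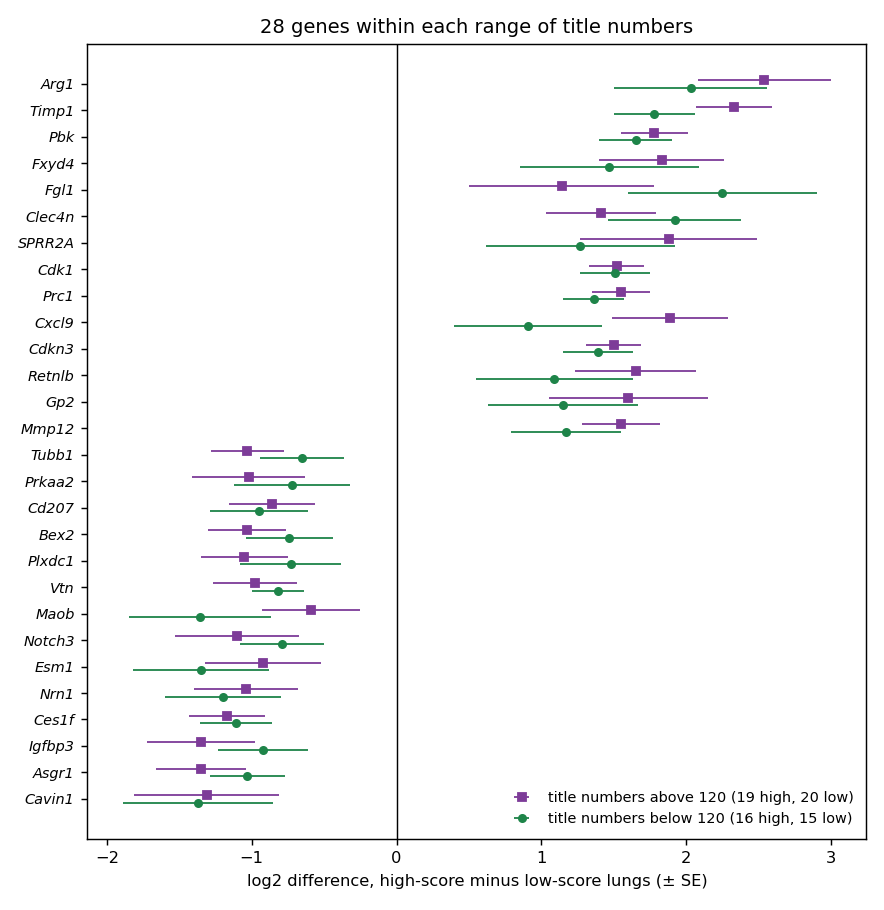
Log2 difference ± SE between high-score and low-score lungs for the 28 genes named for size, in mice numbered above 120 (squares) and below 120 (circles). All 28 lie on the same side of 0 in both ranges, with Timp1 at 2.33 and 1.78.

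Because type 2 genes move with the score, the comparison was also fitted with the mean z value of the 15 type 2 genes as a covariate, which left 477 genes higher (2.87%) and 89 lower (0.536%). Under it Timp1 differed by 1.44 (limma, adjusted p = 1.45e-07), Cdk1 by 1.17, Lrg1 by 0.64, Cd14 by 0.75 and Il1rn by 1.00, and all these passed. Arg1, itself in the list, differed by 0.88. Cxcl1 (0.63), the interferon gamma genes Cxcl9 (0.55), Cxcl10 and Ciita, Slc26a4 (0.01) and Serpina3g (0.05) did not pass. Of the lists, 6 of 7 proliferation, 5 of 23 acute phase, 5 of 12 macrophage, 5 of 12 matrix and 4 of 11 complement genes were higher in this fit. With the mean of the 13 neutrophil markers as covariate, 1595 of all 16615 genes were higher and 965 lower. In that fit 7 of 7 proliferation, 8 of 23 acute phase, 7 of 12 matrix and 6 of 12 macrophage genes were higher. The macrophage list had a median difference of 0.39. Csf3r and Cxcr2, both in the neutrophil list, differed by -0.02 and -0.01.

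Lastly, genes were tested for following Saa3 more than Lcn2, or the reverse, at a given mean of both, over all 138 mice. The coefficient is in log2 per unit of the difference between the z values of Saa3 and Lcn2, and a positive value means a lean to Saa3. Of 16615 genes, 8 leaned to Saa3 (0.0481%) and 22 to Lcn2 (0.132%), 0.181% in all. Siglech, a lectin of plasmacytoid dendritic cells, leaned to Saa3 at 0.45 ± 0.08 (limma, adjusted p = 0.00183), and its slopes on each gene alone were 0.21 ± 0.07 log2 per SD of Saa3 and -0.10 ± 0.08 per SD of Lcn2. Ifi208, an interferon-inducible gene, leaned by 0.37 ± 0.08, Klk5, a serine protease of epithelium, by 0.36 ± 0.09, Ly9, a receptor of lymphocytes, by 0.21 ± 0.05 and Irf5, a factor of macrophage activation, by 0.15 ± 0.04. Iqgap2, Ogfr and the gene that the array lists as AIM1 complete the 8, at 0.19, 0.15 and 0.13.

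The smallest p of the lean to Lcn2 was that of St6galnac4, a sialyltransferase, at -0.25 ± 0.04 (limma, adjusted p = 4.31e-05), with slopes of 0.03 ± 0.04 per SD of Saa3 and 0.20 ± 0.03 per SD of Lcn2. In RefSeq assembly GRCm38.p6 it lies on chromosome 2, as does Lcn2, 6 tested genes away. Psmd5, a chaperone of the proteasome (-0.35 ± 0.08), and Angptl2, an angiopoietin-like protein (-0.20 ± 0.05), lie 32 and 23 tested genes from Lcn2, and Siglech lies 20 tested genes from Saa3 on chromosome 7. Among the 100 tested genes nearest to Lcn2, 3 leaned, all to Lcn2, and 22 differed between the classes, 15 higher and 7 lower. Among the 100 nearest to Saa3, 1 leaned and 16 differed between the classes, 11 higher and 5 lower, against 15.0% of all genes. Further genes leaning to Lcn2 were Zfp160 (-0.32 ± 0.08), Pxdc1 (-0.28 ± 0.06), Pofut2, a fucosyltransferase (-0.22 ± 0.06), Klk13 (-0.22 ± 0.05) and Apcdd1, an inhibitor of Wnt signals (-0.18 ± 0.04). Psmd5 and Zfp160 each fell on 2 separate levels.

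**Figure D5:**
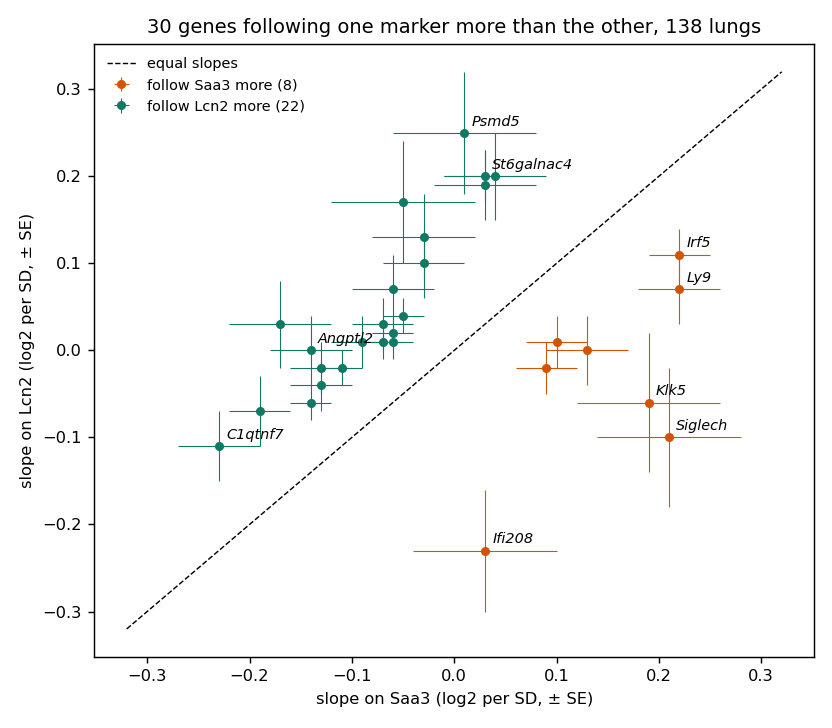
Slope on Lcn2 against slope on Saa3, in log2 per SD of each gene alone with SE, for the 30 genes that follow Saa3 or Lcn2 more than the other over 138 lungs, with the line of equal slopes. The 22 genes above the line lean to Lcn2 and the 8 below it to Saa3, with Siglech at 0.21 on Saa3 and -0.10 on Lcn2.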

How the data were processed

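Lung RNA of 138 mice was measured on Illumina WG6v2 arrays. The authors deposited an intensity per probe, not normalized, with a detection p-value beside it per the file headers, and log2 values made with GenomeStudio and R 2.9.2 by RMA with quantile normalization, per the design description given with the series and the submitters' processing notes. Whether that step corrected for background: not given in the sources used here. The deposited log2 values (4.68 to 13.4, the median of each array 5.57) set the score and the classes. Levels tested came from the intensities by neqc in limma 3.58.1 (R 4.3.3), with a background fit from the detection p-values, an offset of 16 and quantile normalization. Probes with detection p under 0.05 in at least 14 mice were kept (24450 of 45281), a number that mice of a single class can reach. A gene was its kept probe with the highest mean, and 5319 genes had more than 1. Names came from the array, updated through the RefSeq table of GRCm38.p6, used otherwise for neighbours and promoters.

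Classes were compared with lmFit and eBayes over 16615 genes, with Benjamini-Hochberg adjustment and a threshold of 0.05, and the fits were tested on simulated data. There, 4 of 100 genes shifted by 0.5 SD in the high class were called, and 61 of 100 shifted by 1.0 SD. Of the genes called, the text names the 14 largest differences per direction and up to 8 leaning genes per direction, detected in at least 35 of 70 lungs and without clone-like names, and members of 44 lists. A gene had 2 levels when a mixture of 2 normals lowered the BIC by over 10, with means over 3 SD and 1 log2 apart and 5% of mice in the smaller part. The members and lists were chosen with earlier results of these data known. The alternatives are listed with their effect at the end. Python 3.11.15, numpy 2.4.6, scipy 1.17.1 and pandas 2.3.3 were used. Some genes of the lists are not reported here. The number of arrays limits the precision.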

Additional observations from a re-analysis of the deposited data

How the results depend on the processing

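The alternatives were the authors' deposited values, no filter or detection in every mouse, the score from neqc values, classes by Saa3 or Lcn2 alone, 46 against 46 mice, a slope over all mice or over those in neither class, the mean of a gene's probes, 3 covariates, either title number range, leaving out lines OR5513 and OR1427 and, chosen after seeing the data, leaving out line OR5308. Counts of higher and lower genes stayed within 1.5 times of 1546 and 940 except for 477 and 89 with the type 2 covariate, 477 and 176 in mice numbered below 120, 820 and 246 in those above, 6 and 1 in the neither-class slope, and 1707 lower genes in the slope over all mice. With fewer mice fitted, the title ranges have less power. The neither-class slope was fitted on 68 mice with scores from -0.558 to 0.686, against -2.16 to 1.886 over all mice. The part of this narrower range in its counts was not tested. Without lines OR5513 and OR1427, Serpina3g, Mt2, Tnf, Jak2, Relb, Tnip3, Il17ra, Csf3r, Tlr1, Il1rl1, Prg2, Plau, Pdpn, Cyp2f2, Aldh3a1, Cd8b1, Cyp2e1, Pon1 and Tsc22d3 no longer passed, in the same direction. Genes leaning to Saa3 numbered 3 without a filter, 25 with detection in every mouse and 15 with the title range as covariate, against 8, and those leaning to Lcn2 14 without a filter and 46 with detection in every mouse, against 22. The cause was not tested.

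Signs turned in the neither-class slope for Esm1 (0.03), Maob (0.26), Plxdc1 (0.12), Cp (-0.01), Mt2 (-0.02), Osmr (-0.005), Cxcr2 (-0.02), Myd88 (-0.003), Il1rl1 (-0.002), Cav1 (0.004), Dusp1 (0.06), Fkbp5 (-0.24), Tsc22d3 (0.01) and Actb (-0.003). They turned with the type 2 covariate for Tnip3 (-0.04), Il5 (-0.01), Ccl8 (-0.004), Il1rl1 (-0.02), Prg2 (-0.01), Aldh3a1 (0.02) and Pon1 (0.06), with the neutrophil covariate for Cxcr2 (-0.01) and Csf3r (-0.02), in mice numbered below 120 for Sele (-0.01), and with the mean of probes for Cd8b1 (-0.15). Il5, Ccl8 and Il1rl1 are themselves in the type 2 list, and Cxcr2 and Csf3r in the neutrophil list, so those covariates hold their own levels. None of the turned values passed the threshold, and the cause was not tested. No paired analysis was possible because each mouse is a line of its own and the replicate numbers pair no mice across classes.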
